A study of Mus musculus with 22 samples.

Results

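The genes described here encode the nuclear-encoded subunits of the mitochondrial respiratory chain and of ATP synthase in the mouse, with a few of their assembly factors. They were chosen by symbol: every row of the count table whose symbol starts with Ndufa, Ndufb, Ndufc, Ndufs, Ndufv, Sdh, Uqcr, Cox4, Cox5, Cox6, Cox7, Cox8 or Atp5, unless it carries the pseudogene mark -ps, which removed 0 rows. The rule gave 92 of 21881 symbols. Of these, 40 belong to complex I (7 core subunits, 29 accessory subunits and 4 assembly factors), 6 to complex II (4 subunits and 2 assembly factors), 8 to complex III, 20 to complex IV (11 subunits and 9 tissue isoforms or related forms) and 15 to complex V. The other 3 are no structural subunits of the chain: Atp5s is known as coupling factor B of ATP synthase, Atp5sl as an assembly factor of complex I, and Cox4nb, the neighbour of Cox4i1, belongs to a complex of the endoplasmic reticulum. The genes of the mitochondrial genome itself, which encode further subunits of complexes I, III, IV and V, were not analysed here. Of 26 symbols listed for them, 0 were in the count table.

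Complex I takes electrons from NADH and complex II from succinate, both pass them through ubiquinone to complex III, and cytochrome c carries them on to complex IV, which reduces oxygen. The proton gradient built on the way drives complex V, the ATP synthase. In the mouse blastocyst the outer trophectoderm is known for more active mitochondria than the inner cell mass, and embryonic stem cells are known for strong glycolysis beside respiration.

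RNA was sequenced in the study from embryos of embryonic day 3.5 and from lines of stem cells that represent the lineages of the blastocyst. There were 2 wild-type embryos (1 female, 1 male), 2 embryos heterozygous for Nanog (1 female, 1 male) and 4 Nanog knockout embryos (2 females, 2 males), called null here. The wild-type and heterozygous embryos together are called Nanog-bearing. The lines all carry wild-type Nanog: 2 embryonic stem (ES) lines labelled as grown free of serum (female 1 and male 2), 3 trophoblast stem (TS) lines (females 1 and 2, male 3) and 2 extraembryonic endoderm (XEN) lines (males 1 and 2), each with 2 libraries from different passages. Medium is given in the labels for ES cells only, so culture and lineage cannot be told apart. The sources used here name neither the knockout allele nor the strain.

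Embryo libraries held 14.8 to 32.2 Mcounts (mega-counts), and the 2 libraries of a line together held 17.4 to 37.6 Mcounts. Nanog had 6 to 12 counts in the null embryos and 791 to 3456 in the Nanog-bearing ones. Summed over each list, ES, TS and XEN markers were higher in the lines of that name than in the other lines. Embryo cDNA was amplified with another kit than the one used for the lines, so embryo and line values are never set against each other as a comparison. Levels are CPM (counts-per-million) after TMM scaling, and differences are log2 fold changes (log2FC) from edgeR's quasi-likelihood test with Benjamini-Hochberg adjustment over all genes tested. A gene is said to rise or fall only where this adjusted p is under 0.05. The labels do not say whether embryos came from separate litters, and p-values measure the spread between these samples only.

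Levels can be compared between genes only per kilobase of transcript. In embryos the mean levels of the highest were 997 CPM per kb for Uqcr10, a small accessory subunit of complex III, 949 for Uqcrb, which binds near the ubiquinone site of the same complex, 919.7 for Cox6a1, of complex IV, 866 for Cox4i1 and 816 for Atp5b, the catalytic beta subunit of ATP synthase. In the lines Atp5b led, with 997 CPM per kb in ES, 1094 in TS and 1018 in XEN cells. Atp5g3, which encodes the same rotor ring protein as Atp5g1 and Atp5g2, had 443, 542 and 525 CPM per kb in the same order. These levels depend on the annotated exon length, which for genes with long alternative transcripts lowers the value.

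At a mean of at least 5 log2 CPM, the chain genes had a lower median spread between samples than all genes. The SD of log2 CPM across the 8 embryos had a median of 0.36 over 82 chain genes and 0.49 over all 4797 genes of that level. Across the 7 lines the medians were 0.30 over 77 chain genes and 0.46 over 6424 genes. The widest spread among the chain genes was 1.79 in embryos and 0.86 in lines, and the widest over all genes was 3.77 and 5.39.

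Summed over its genes, each complex was lowest or near lowest in the second null female and, complex II aside, highest in the second null male. Complex I summed to 5840 CPM in the wild-type female, 5702 in the wild-type male, 5092 and 5211 in the heterozygous female and male, 5111 and 4743 in null females 1 and 2, and 6352 and 8043 in null males 1 and 2. The null embryos lay on both sides of all others. Complex IV followed the same order at its ends, with 2895 CPM in null female 2 and 5594 in null male 2, and 3148 to 4388 CPM in the Nanog-bearing embryos. Complex V, the ATP synthase, ranged from 6210 CPM in null female 2 to 9612 in null male 2. Complex II, the only complex made from nuclear genes alone, went the other way in null male 2: its sum of 766 CPM was the lowest, against 790 to 880 in the other null embryos and 878 to 979 in the Nanog-bearing ones. In bulk samples, fewer cells of a type and less RNA per cell cannot be told apart.

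**Figure D1:**
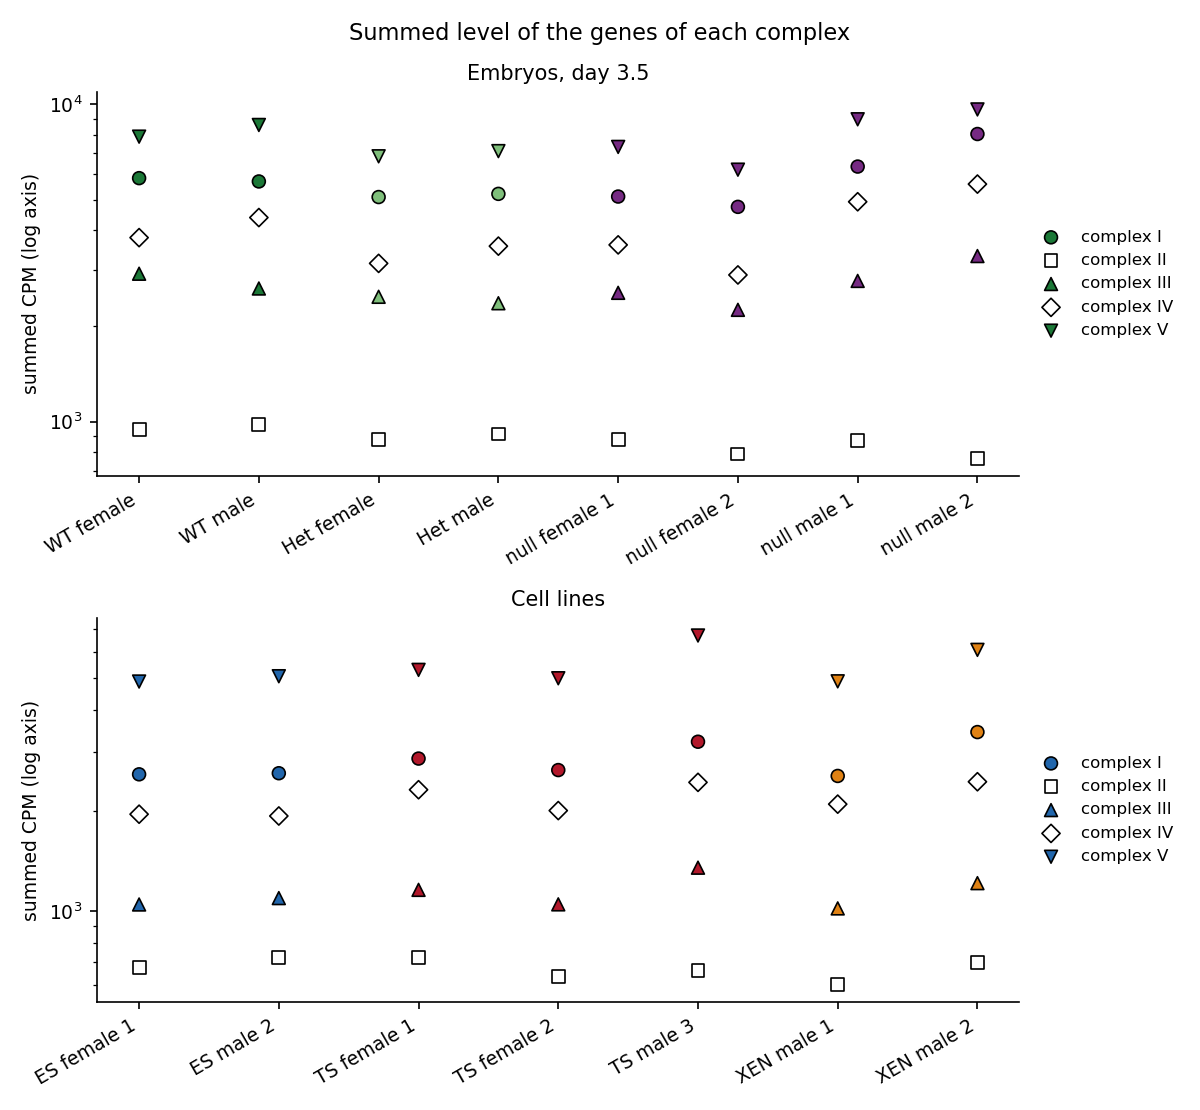
Summed CPM (log axis) of the genes of complexes I to V in each of the 8 embryos (top) and 7 lines (bottom); each symbol is 1 sample, colours are groups, and open symbols are complexes II and IV. Null male 2 has the highest sum for complexes I, III, IV and V (8043 CPM for complex I) and the lowest for complex II (766 CPM).

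Null embryos were compared with Nanog-bearing embryos to ask whether loss of Nanog changes the chain. No chain gene passed the test: edgeR called 0 of 88 tested, beside 0.0154% of all 12965 genes. At an unadjusted p under 0.05 there were 3 of 88, beside 4.97% of all genes. DESeq2 called 1 of 88, beside 0.671%, and limma voom called 0, beside 0%. The median log2FC of the 88 genes was 0.13 and 64 of them were above 0, beside a median of -0.05 over all genes and of 0.08 over genes of at least 5 log2 CPM. By role, 44 of 55 accessory subunits but 11 of 19 core subunits had values above 0. This count rested on a few embryos: without null male 2 it was 46 of 88 with a median of 0.03, and without the wild-type male 47 genes were above 0 and 42 below.

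The 4 null embryos lay wholly above the 4 Nanog-bearing ones for 1 chain gene, beside 1.64% of all genes, and wholly below for 2, beside 3.57%. The gene above was Ndufaf3, an assembly factor of complex I, chosen for naming after its values were seen. It had 33.5 to 35.9 CPM in the Nanog-bearing embryos and 36.4, 44.6, 47.6 and 60.8 CPM in the null ones (log2FC 0.43, SE 0.37, edgeR adjusted p 0.982). Sdha was among the genes below. With library totals in place of TMM no gene lay wholly above.

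Among the core subunits of complex I, Ndufs1, which carries iron-sulfur clusters of the electron entry arm, had 162 and 186 CPM in the Nanog-bearing females and 270 and 198 in the null females, but 139 and 217 in the Nanog-bearing males and 122 and 138 in the null males. Its log2FC was 0.00 (SE 0.28). The core subunits Ndufs3, Ndufs7, Ndufs8, Ndufv1 and Ndufv2 had log2FC of 0.02, 0.10, 0.15, 0.12 and -0.00 with SE of 0.24 to 0.27.

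Sdha encodes the flavoprotein of complex II that oxidises succinate. It had 456 and 401 CPM in the wild-type female and male, 361 and 377 CPM in the heterozygous pair, and 342, 336, 309 and 154 CPM in null females 1 and 2 and null males 1 and 2. The groups did not overlap, and null male 2 was far the lowest (log2FC -0.50, SE 0.27, edgeR adjusted p 0.931, and -0.29 without that embryo). The iron-sulfur subunit Sdhb and the membrane anchors Sdhc and Sdhd had log2FC of 0.15, 0.15 and -0.19, with SE of 0.24, 0.31 and 0.25. Within complex II, null male 2 combined the lowest Sdha level with the highest Sdhb level of all 8 embryos, at 315 CPM.

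In complex III, the matrix-facing core proteins Uqcrc1 and Uqcrc2 and the Rieske protein Uqcrfs1 had log2FC of -0.28 (SE 0.20), 0.06 (SE 0.21) and 0.12 (SE 0.45). Uqcrfs1 was 123 CPM in null male 2 and 21.0 to 55.8 CPM in the other embryos. For ATP synthase, the catalytic core Atp5a1, Atp5b and Atp5c1 had log2FC of -0.11, -0.13 and 0.23 with SE of 0.19 to 0.23. Atp5f1, of the peripheral stalk, had 389.7 to 450.2 CPM in the Nanog-bearing embryos and 573, 431, 453 and 783 CPM in the null ones (log2FC 0.40, SE 0.25), with overlapping groups. The rotor ring genes Atp5g1, Atp5g2 and Atp5g3 had log2FC of 0.35 (SE 0.26), -0.19 (SE 0.24) and 0.19 (SE 0.26).

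Among the 82 chain genes of at least 5 log2 CPM, Ndufab1 and Cox5a had the widest spread across the embryos, with SD of 1.79 and 1.44 log2 units. Cox5a, a subunit that surrounds the core of complex IV, had 54.2 and 239 CPM in the wild-type female and male and 33.1 and 56.5 CPM in the heterozygous pair. It had 71.3 and 329.8 CPM in null females 1 and 2 and 157 and 555 CPM in null males 1 and 2. High and low embryos occurred in both the wild-type and the null group. The log2FC between null and Nanog-bearing embryos was 1.89 (SE 0.54, edgeR adjusted p 0.931). It passed with DESeq2 (adjusted p 0.0304) and with edgeR when no genes were filtered out (adjusted p 1.27e-05). Cox5a was the 1 chain gene that these fits called. DESeq2 called 0.671% of all genes. The share of all genes called by the unfiltered fit is not given here, so its p-value has no background beside it.

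Ndufab1, the mitochondrial acyl carrier protein that is also a complex I subunit, had 9.97 and 69.2 CPM in the wild-type female and male, 4.59 and 8.49 CPM in the heterozygous pair, and 4.97, 50.3, 56.7 and 102.5 CPM in null females 1 and 2 and null males 1 and 2. The same 4 embryos, the wild-type male, null female 2 and both null males, were high for both genes. Outside the symbol rule, they were also high for Cyc1, with 137 to 252 CPM against 54.1 to 91.1 CPM in the others. Slc25a3 had 419 to 758 CPM in them against 125 to 252 CPM. Both were picked after their values were seen, and how many genes share this pattern was not counted. The log2FC of Ndufab1 was 1.80 (SE 0.67, edgeR adjusted p 0.931), and 0.86 without null female 2. Among the lines, whose cDNA was made with another kit, Ndufab1 ranged from 48.3 to 79.2 CPM and Cox5a from 147 to 200 CPM. The authors' counting could share reads of such genes with processed copies elsewhere in the genome, which was not tested.

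**Figure D2:**
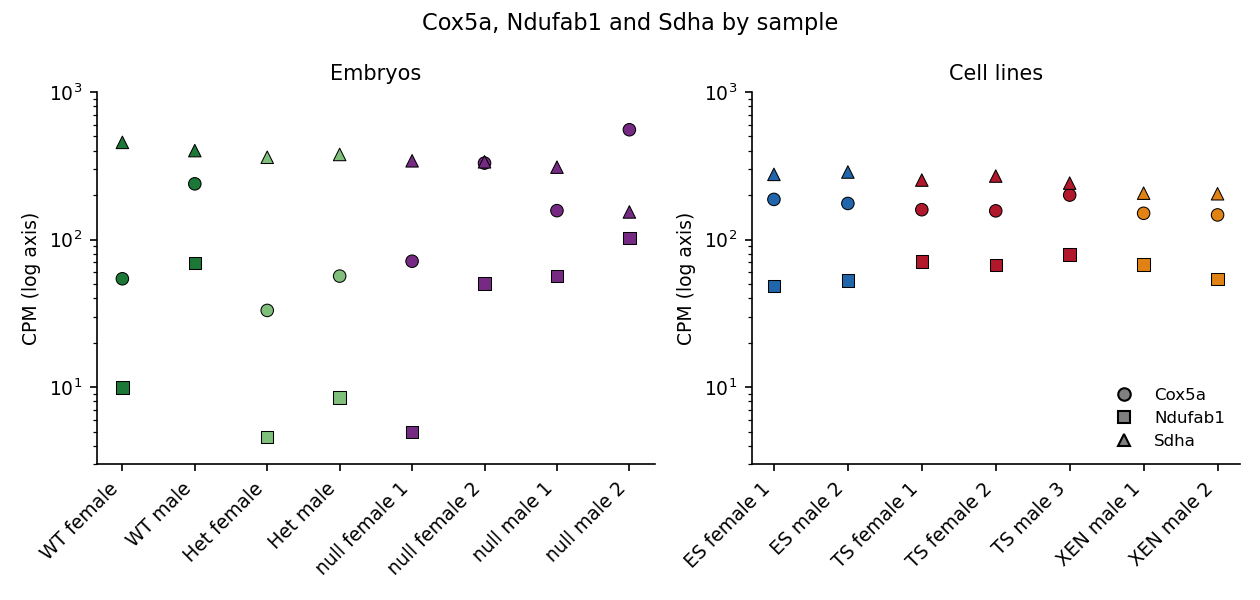
CPM (log axis) of Cox5a (circles), Ndufab1 (squares) and Sdha (triangles) in each embryo (left) and line (right), coloured by group. Cox5a runs from 33.1 to 555 CPM among the embryos, with high and low values in the wild-type and the null group. The line panel, made with another kit, is not compared with it and holds Cox5a values of 147 to 200 CPM.

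The other genes with the smallest p were Ndufb7, Ndufa12 and Ndufa4. Ndufb7, of the membrane arm of complex I, had 104.5 to 147 CPM in the Nanog-bearing embryos and 159, 120.5, 163 and 325 CPM in the null ones (log2FC 0.62, SE 0.32). Ndufa12, an accessory subunit of the peripheral arm, and Ndufa4, a complex IV subunit that carries a complex I name, had log2FC of 0.50 (SE 0.31) and 0.38 (SE 0.25). For all 3 the highest value was in null male 2.

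Genes of the muscle and testis forms of complex IV were low in embryos. Cox8b, the heart and muscle form of Cox8, had 41 counts in null female 2, 72 in null male 2 and 16 in the heterozygous female, with 0 in the other 5 embryos. Cox6a2, the muscle form of Cox6a, had 131 counts in null male 2, 79 in null female 2, 66 in the wild-type female and 34 or fewer in the others. Neither passed the test. Null female 2 and null male 2 were also the only embryos with any count of Dcn (1.95 and 3.92 CPM), a fibroblast gene, and held most of the Hba-a1 (5.82 and 4.80 CPM), a globin. Of the 8 fibroblast markers, 6 were above 0 in these 2 embryos and at 0 in the other 6. The summed fibroblast markers were 0 to 7.38 CPM in null, 2.33 to 6.40 CPM in wild-type and 0.0857 to 12.2 CPM in heterozygous embryos, and their part in these levels was not tested.

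The other isoform genes gave no call either. Cox6b2, the testis form of Cox6b, had 7.12, 11.7, 12.1 and 2.79 CPM in the Nanog-bearing embryos and 0, 0.977, 1.71 and 3.34 CPM in the null ones (log2FC -2.88, SE 1.77). Cox7a1, the heart and muscle form of Cox7a, had 22.4, 21.5 and 20.6 CPM in the wild-type embryos and the heterozygous female. It had 142 counts (9.0 CPM) in the heterozygous male, 5.04 to 7.13 CPM in 3 null embryos and 27.0 CPM in null male 2. Cox8c was at 0 in all 22 libraries. Cox4i2, the lung form of Cox4, had counts in the heterozygous male only (0.444 CPM), and Cox7b2 in the wild-type female only (1.45 CPM). The ubiquitous forms carried most of the family in embryos. Cox4i1 made up at least 99.9% of the Cox4 level per kb and Cox6a1 at least 98.8% of the Cox6a level in every embryo. In the Cox7a family the muscle form held more: Cox7a1 ranged from 2.77% per kb in null female 1 to 12.1% in the wild-type female.

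Against the separate genotypes the outcome was alike. Null against wild type gave 0 of 88 chain genes with edgeR (0.0154% of all genes), 0 at an unadjusted p under 0.05 (3.86%), 0 with DESeq2 (0.74%) and 0 with voom (0%). Null against heterozygous gave 0 with edgeR (0.00771%), 2 unadjusted (2.75%), 1 with DESeq2 (0.594%) and 0 with voom (0%). The 2 genes were Cox5a (log2FC 2.62, SE 0.73) and Ndufab1 (log2FC 2.86, SE 0.94), and DESeq2 called Cox5a. Of the 88 genes, 72 were above 0 with a median log2FC of 0.24, and without the heterozygous male 51 were above 0 and 38 below with a median of 0.06. Heterozygous against wild type gave 0 with edgeR (0%), 0 unadjusted (0.825%), 0 with DESeq2 (0.586%) and 0 with voom (0%). In that comparison 78 of 88 chain genes had values below 0 with a median log2FC of -0.18, beside -0.02 over all genes. The direction rested on single embryos: without the heterozygous male 45 were below and 44 above 0, and without the wild-type female 38 were below and 50 above. The comparisons share embryos and are not independent of each other.

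Null male 2 stood apart across the whole set. At a mean of at least 5 log2 CPM, 68 of 82 chain genes were above the median of the other 7 embryos there, with a median log2 difference of 0.57, and 67 of 82 were above it in null male 1 (median 0.25). In null female 2 only 16 of 82 were above (median -0.23). Null male 2 was also at the extreme of other measures. The genes for cytosolic ribosomal proteins, 80 in all, summed to 94062 CPM in null male 2 and to 53071 to 60748 CPM in the other embryos. Null male 2 had 799 genes at 3 counts or fewer that averaged at least 5 CPM in the other embryos, null female 1 had 567, null female 2 had 300, null male 1 had 135, and the Nanog-bearing embryos had 40 to 68. Across genes, the difference of null male 2 from the others fell with transcript length. Spearman's rho was -0.30 over 79 chain genes and -0.32 over 4346 genes, which are not independent replicates. Over the same 4346 genes, rho was -0.14 in null male 1, -0.02 in null female 2 and 0.03 in null female 1. The chain genes are short, with a median of 1046 bases beside 2889.5 for all genes of this level. The part of length and of such low-count genes in the levels of null male 2 was not tested.

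**Figure D3:**
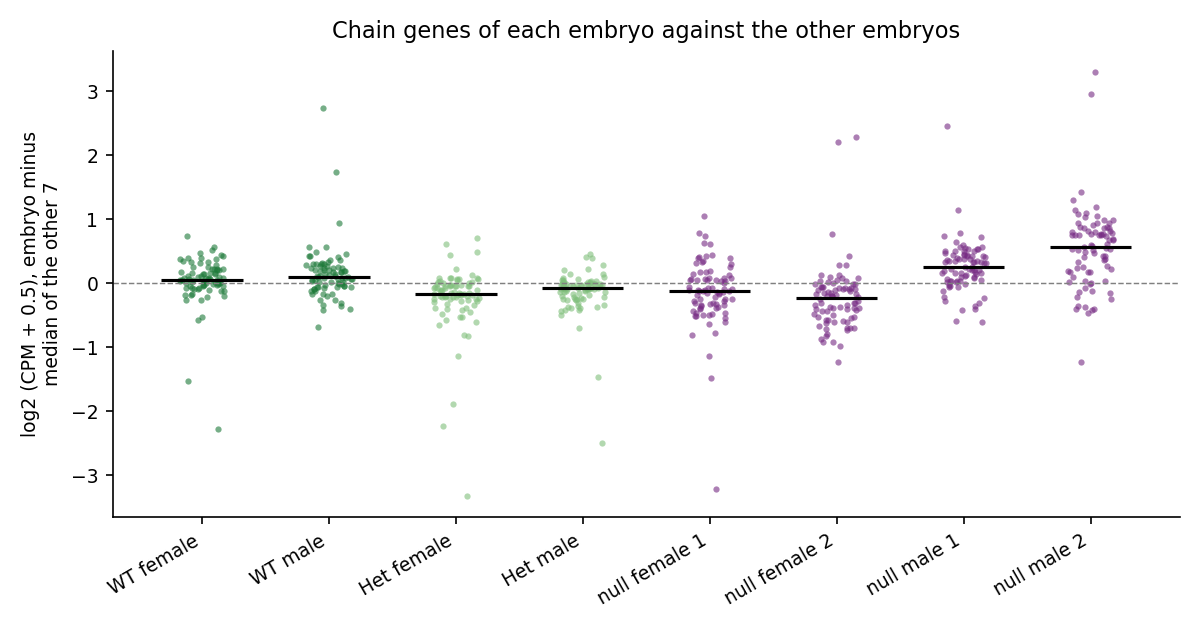
Difference between each embryo's log2 (CPM + 0.5) and the median of the other 7 embryos (vertical axis) for 82 chain genes of at least 5 log2 CPM; each point is 1 gene, and the black line is the median of the embryo. The medians are 0.57 in null male 2 and 0.25 in null male 1, and between -0.23 and 0.10 in the other embryos.

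In the lines, the whole chain varied by less than 1.5 times. All 92 genes summed to 11234 and 11513 CPM in ES female 1 and male 2, to 12505, 11401 and 14485 CPM in TS females 1 and 2 and male 3, and to 11228 and 13984 CPM in XEN males 1 and 2. TS and XEN each had a line at the level of the ES lines. Complex II was again the most even, with 1.20 times between its lowest and highest line. The 2 libraries of XEN male 2 differed: summed over the genes tested, replicate 2 had 17737 CPM and replicate 1 had 11748 CPM, and the other 12 libraries had 9998 to 14870 CPM. Over the 87 chain genes tested, the 2 libraries of XEN male 2 differed by a median of 0.63 log2 units, and those of the other lines by 0.10 to 0.30.

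Between lineages, a smaller share of the chain genes than of all genes passed the test. ES against TS gave 14 of 87, beside 41.3% of all 14687 genes: 4 higher in ES, beside 20% of all genes, and 10 lower, beside 21.3%. ES against XEN, which shares the ES lines, gave 16 of 87, beside 45.1%: 5 higher, beside 23.4%, and 11 lower, beside 21.8%. TS against XEN gave 8 of 87, beside 36.7%: 2 higher in TS, beside 20.3%, and 6 lower, beside 16.4%. Among genes of at least 5 log2 CPM the shares were 14.3% of 77 chain genes beside 41.3% for ES against TS, 16.9% beside 43.6% for ES against XEN, and 6.49% beside 32.8% for TS against XEN. The median absolute log2FC was 0.33 beside 0.54, 0.29 beside 0.61 and 0.30 beside 0.44 in the same order. Line values did not overlap for 57 of 87 chain genes in ES against TS, beside 70.5%, for 54 in ES against XEN, beside 78.5%, and for 34 in TS against XEN, beside 60.1%.

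The counts depended on single lines and on scaling. The share of all genes called is not given for these settings, so the changes cannot be read as particular to the chain genes. Without ES female 1 or without ES male 2, which leaves 1 ES line assumed to vary like the other groups, ES against TS gave 2 genes each time and ES against XEN gave 3 and 2. Without XEN male 2, ES against XEN gave 8 genes (5 higher, 3 lower), and without TS male 3 it gave 28. TS against XEN gave 2 and 3 genes without ES female 1 and ES male 2, 3 and 1 without TS female 1 and TS female 2, and 4 without XEN male 2, all 4 higher in TS and 0 of them among the 8 called with it. With replicate 1 of each line alone it gave 4 genes, 3 of them higher in TS. Scaling by library totals moved the median of all genes from 0.05 to 0.39 in ES against XEN and from 0.02 to 0.29 in TS against XEN. It turned the split to 15 higher and 5 lower in ES against XEN and to 18 higher and 1 lower in TS against XEN. Set against the median of all genes, the median of the chain genes was -0.22 in ES against XEN and 0.04 in TS against XEN under both scalings. No chain gene called with TMM changed sign under any of the 16 alternatives, but 7 of the 38 calls were lost under more than 8 of them.

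Of the genes that differed between ES cells and another lineage, most were lower in ES. Ndufa8, an accessory subunit of complex I on the intermembrane side, had 43.8 and 42.7 CPM in ES female 1 and male 2, 101, 102 and 122 CPM in TS females 1 and 2 and male 3, and 72.0 and 86.8 CPM in XEN males 1 and 2. The 3 lineages did not overlap. It was lower in ES than in TS (log2FC -1.32, SE 0.18, edgeR adjusted p 0.00169) and than in XEN (log2FC -0.88, SE 0.19, adjusted p 0.00809). The ES to TS difference passed under all 16 alternatives.

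Ndufa2, another accessory subunit of the peripheral arm of complex I, was lower in ES than in TS (log2FC -0.74, SE 0.19) and than in XEN (log2FC -0.98, SE 0.20, edgeR adjusted p 0.00678). It had 45.4 and 43.1 CPM in the ES lines and 68.4 to 100.2 CPM in all others. Ndufc2, of the membrane arm, was lower in ES than in TS (log2FC -0.64, SE 0.16). Of the core subunits, Ndufs3 (log2FC -0.72, SE 0.18) and Ndufs8 (log2FC -0.66, SE 0.19) were lower in ES than in TS. Ndufs1, Ndufs7, Ndufv1 and Ndufv2 passed in no line comparison.

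Ndufb10, of the membrane arm of complex I, had 37.8 and 46.9 CPM in the ES lines, 51.1, 48.6 and 67.0 CPM in the TS lines, and 74.1 and 108 CPM in the XEN lines. The XEN values lay above all others (ES against XEN log2FC -1.11, SE 0.27, edgeR adjusted p 0.0125). They were also above TS (TS against XEN log2FC -0.71, SE 0.24, edgeR adjusted p 0.0493). Ndufb8 was lower in ES (log2FC -0.95, SE 0.26) and TS (log2FC -0.80, SE 0.23) than in XEN, and Ndufb7 was lower in ES than in XEN (log2FC -0.82, SE 0.22). Ndufa5 was lower in TS than in XEN (log2FC -0.86, SE 0.23). Like all other TS to XEN calls of chain genes, those of Ndufb8, Ndufb10 and Ndufa5 were lost without XEN male 2. In all they were lost under 7, 10 and 8 of the 16 alternatives.

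The complex I genes higher in ES cells were Ndufaf4, Ndufaf1 and Ndufb4. Ndufaf4, an assembly factor, had 36.8 and 32.8 CPM in the ES lines, 15.6 to 19.6 CPM in the TS lines and 17.0 and 25.1 CPM in the XEN lines (ES against TS log2FC 0.94, SE 0.25, edgeR adjusted p 0.0203). Ndufaf1, an assembly factor of the membrane arm, was higher in ES (log2FC 0.98, SE 0.24) and in TS (log2FC 0.69, SE 0.22) than in XEN, where it had 14.9 and 14.1 CPM. The TS to XEN call was lost under 11 of the 16 alternatives. Ndufb4, of the membrane arm, was higher in ES than in TS (log2FC 0.63, SE 0.21, edgeR adjusted p 0.0490), a call lost under 8 of them.

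In complex II, Sdha was higher in ES than in XEN, with 277 and 287 CPM against 206 and 204 CPM (log2FC 0.46, SE 0.16, edgeR adjusted p 0.0487), a call lost under 10 of the 16 alternatives. Sdhb differed in the same direction without passing (log2FC 0.65, SE 0.23, adjusted p 0.0520). Sdhaf2, which helps to attach FAD to Sdha, went the other way, with 28.0 and 28.1 CPM in the ES lines, 32.1 to 34.9 CPM in TS and 46.2 and 47.7 CPM in XEN. The 3 lineages did not overlap, and ES was lower than XEN (log2FC -0.74, SE 0.18, adjusted p 0.0141).

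In complex III, the accessory subunit Uqcrq had 75.9 and 78.0 CPM in the ES lines and 130.0 to 200.5 CPM in all others. It was lower in ES than in TS (log2FC -0.98, SE 0.25, edgeR adjusted p 0.0175) and than in XEN (log2FC -1.10, SE 0.26, adjusted p 0.0126). Uqcrb was higher in ES than in TS (log2FC 0.47, SE 0.15), a call lost under 8 of the 16 alternatives. The core proteins Uqcrc1, Uqcrc2 and Uqcrfs1 passed in no line comparison, and the smallest adjusted p among them was 0.0525 for Uqcrfs1 in ES against TS (log2FC -0.52, SE 0.18).

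In complex IV, Cox4i1, the ubiquitous form of the regulatory subunit 4, had 226 and 248 CPM in the ES lines, 551, 333 and 465 CPM in the TS lines and 353 and 456 CPM in the XEN lines. It was lower in ES than in TS (log2FC -0.92, SE 0.25, edgeR adjusted p 0.0214) and than in XEN (log2FC -0.77, SE 0.26, adjusted p 0.0461). Cox8a, the ubiquitous form of the smallest subunit, had 203 and 197 CPM in ES, 232 to 246 CPM in TS and 316 and 339 CPM in XEN. It was lower in ES (log2FC -0.71, SE 0.16) and in TS (log2FC -0.45, SE 0.14) than in XEN. The TS to XEN call of Cox8a was lost under 12 of the 16 alternatives and the ES to XEN call of Cox4i1 under 9. Ndufa4 was lower in TS than in XEN, with 106 to 147 CPM against 193 and 243 CPM (log2FC -0.81, SE 0.20, adjusted p 0.0156).

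The called chain gene with the largest fold changes was an isoform gene at a low level. Ndufa4l2, the form of Ndufa4 that is known to be induced under low oxygen, had 145 and 364 counts in the ES lines, 30, 46 and 10 counts in the TS lines and 6 and 2 counts in the XEN lines. In CPM these were 7.75 and 17.4, then 1.89 or less in TS and 0.184 or less in XEN. It was higher in ES than in TS (log2FC 3.55, SE 0.69, edgeR adjusted p 0.00658) and than in XEN (log2FC 6.54, SE 0.96, adjusted p 0.00172), and higher in TS than in XEN (log2FC 2.99, SE 0.85, adjusted p 0.0297). The ES to XEN call passed under all 16 alternatives. The TS to XEN call was lost under 6 of them, including the fit without XEN male 2, and the ES to TS call under 1. Even in ES cells it made up 3.45% and 7.21% of the Ndufa4 family per kb.

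Cox6b2, the testis form of Cox6b, had 58.8 and 61.4 CPM in the ES lines, 45.9, 49.7 and 16.5 CPM in TS females 1 and 2 and male 3, and 24.2 and 14.9 CPM in the XEN lines. It was higher in ES than in XEN (log2FC 1.62, SE 0.51, edgeR adjusted p 0.0349). Per kb it made up 28.7% of the Cox6b family in ES, with a range over the 2 lines of 27.7% to 29.6%, 16.5% in TS (7.60% to 22.5%) and 9.22% in XEN (6.91% to 11.5%). The muscle forms Cox6a2 and Cox8b had 3 or fewer counts in every line.

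In ATP synthase, Atp5d, the delta subunit of the central stalk, had 120 and 121 CPM in the ES lines, 247, 248 and 402 CPM in the TS lines and 233 and 277 CPM in the XEN lines. It was lower in ES than in TS (log2FC -1.31, SE 0.26, edgeR adjusted p 0.00695) and than in XEN (log2FC -1.08, SE 0.27, adjusted p 0.0156). Atp5h, of the peripheral stalk, was lower in ES than in TS (log2FC -0.72, SE 0.24), Atp5e, the epsilon subunit, was lower in ES than in XEN (log2FC -0.65, SE 0.22), and Atp5j, coupling factor 6, was lower in TS than in XEN (log2FC -0.63, SE 0.21). The calls of Atp5h, Atp5e and Atp5j were lost under 7, 11 and 11 of the 16 alternatives. Atp5a1, Atp5b and Atp5c1, and the rotor ring genes Atp5g1, Atp5g2 and Atp5g3, passed in no line comparison. Of the genes that are no structural subunits, Atp5s was lower in ES than in TS (log2FC -1.71, SE 0.42), at 2.83 and 3.49 CPM against 7.42 to 14.9 CPM, and Atp5sl was higher in ES than in XEN (log2FC 0.89, SE 0.30), a call lost under 7 alternatives.

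**Figure D4:**
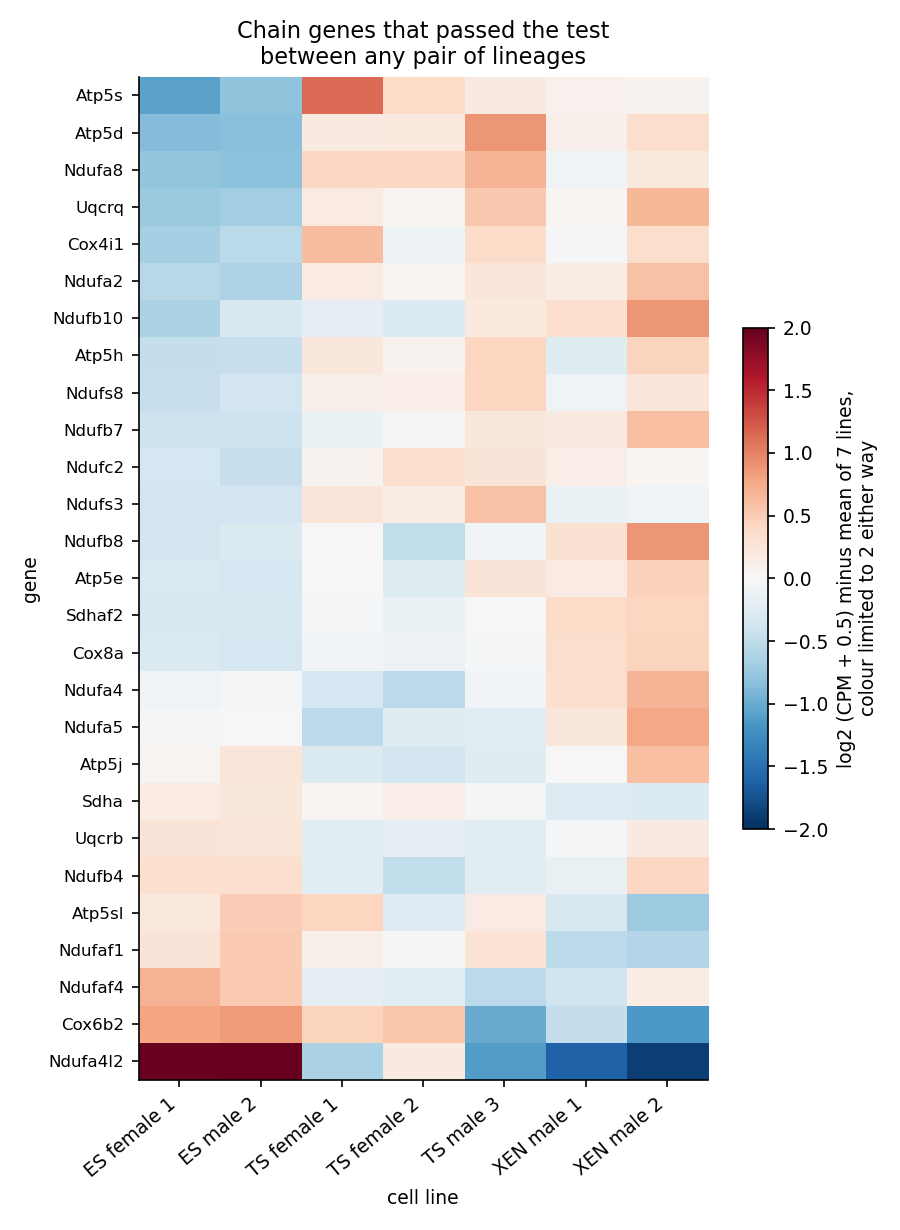
Log2 (CPM + 0.5) of the 27 genes that passed the test in at least 1 pair of lineages, minus the mean of the 7 lines (colour, limited to 2 either way), for each line; genes are ordered by their ES values. Ndufa8, Atp5d, Uqcrq and Cox4i1 are low in both ES lines, and Ndufa4l2 is high in both.

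Markers of other cells differed between the lineages. The 8 fibroblast markers summed to 23.3 to 104 CPM in the TS lines, 5.08 to 6.45 CPM in ES and 2.09 to 7.96 CPM in XEN, and 4 of them were at 0 in both ES lines. The 10 myeloid and blood markers summed to 396 and 626 CPM in ES, 228 to 774 CPM in TS and 12.7 and 20.9 CPM in XEN, and in ES and TS most of it was Laptm5, a lysosomal membrane protein. Ptprc, the pan-leukocyte marker, was at 0 in both ES lines and at most 0.0464 CPM in the others. Tyrobp was at 0 in both ES lines. Other markers of this list were higher: Csf1r had 11.4 to 90.1 CPM in TS and 5.78 and 15.8 CPM in XEN. Cd68 had 25.0 to 32.1 CPM in TS and 13.1 and 14.8 CPM in ES, and Lyz2 had 11.2 CPM in TS female 2. The part of other cells in the line differences was not tested.

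Of the chain genes tested in the lines, 3 are on the X chromosome: Ndufa1 and Ndufb11 of complex I and Cox7b of complex IV. In ES female 1 they were higher than in ES male 2, by 1.99 times for Ndufa1 (63.8 against 32.1 CPM), 1.46 times for Ndufb11 (105 against 71.6 CPM) and 1.69 times for Cox7b (205 against 121 CPM). Of the 72 autosomal chain genes of at least 5 log2 CPM, none reached 1.46, and their ratios ran from 0.80 to 1.22 with a median of 0.98. Both libraries of the female line lay above both of the male line for each of the 3 genes. With 1 line of each sex there is no replicate check, and sex and line cannot be told apart. In the TS females the same genes were no higher than in the TS male. Cox7b had 108 and 125 CPM against 182 CPM, Ndufa1 had 23.2 and 30.7 against 31.8 CPM, and Ndufb11 had 62.7 and 55.7 against 86.5 CPM. However, TS male 3 was higher across the chain: 57 of 77 chain genes of at least 5 log2 CPM lay above the other lines (median log2 difference 0.26). The part of this shift in the X-linked values was not tested.

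**Figure D5:**
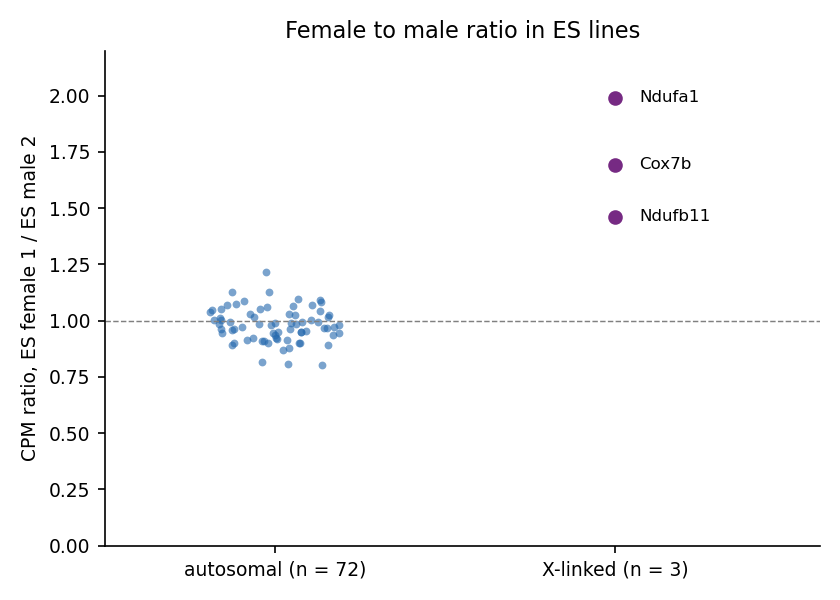
Ratio of CPM in ES female 1 to ES male 2 (vertical axis) for 72 autosomal chain genes of at least 5 log2 CPM and the 3 X-linked ones; each point is 1 gene. The X-linked genes lie at 1.46 to 1.99 and the autosomal ones at 0.80 to 1.22.

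The promoters of the chain genes were searched for letters known from factors that act on nuclear genes of mitochondria. RefSeq windows of GRCm38.p6, from 250 bases before to 50 after each start, were found for 73 of the 92 genes (78 windows). The core of the site of NRF1, a transcription factor known for its part in mitochondrial biogenesis, was searched as CGCATGCG, which reads the same on both strands. It occurred in 10 of 78 windows (12.8%) and in 1.87% of all 32851 windows in the table. The letters CCGGAAG of ETS factors such as GABPA, on either strand, occurred in 19 of 78 windows (24.4%) and in 8.86% of all windows. The median GC content was 58% in the windows of the chain genes and 52.7% in all, and its part in these shares was not tested. A match is a description of the letters and not a site of binding.

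The 4 stretches of 60 bases printed here lie before the start of Ndufa8, Ndufaf4 and Atp5j, which passed the test between lines and hold the NRF1 letters, and of Atp5l, which passed in none and holds both motifs in the stretch printed. Atp5j has 2 windows: its stretch lies before 1 start but after the other, whose window held 0 NRF1 matches. Capitals mark the NRF1 core and, in Atp5l, also the ETS letters. They are given 5′ to 3′ on the strand of the gene: Ndufa8 at chr2:36049339-36049398 (minus strand), Ndufaf4 at chr4:24897945-24898004 (plus strand), Atp5j at chr16:84835090-84835149 (minus strand) and Atp5l at chr9:44920933-44920992 (minus strand).
Ndufa8: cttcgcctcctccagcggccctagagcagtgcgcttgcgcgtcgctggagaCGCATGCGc
Ndufaf4: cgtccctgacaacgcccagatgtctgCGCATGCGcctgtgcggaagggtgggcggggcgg
Atp5j: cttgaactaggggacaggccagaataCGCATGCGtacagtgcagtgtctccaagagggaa
Atp5l: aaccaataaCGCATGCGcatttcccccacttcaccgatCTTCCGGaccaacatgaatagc
Genes with the same core letters differed in opposite directions between the lines: Ndufa8 was lower and Ndufaf4 higher in ES than in TS, and Atp5l passed in no line comparison.

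Genes that work with the chain were taken from lists written from general knowledge. They too were chosen with earlier results known. No gene of these lists passed edgeR's test in null against Nanog-bearing embryos. At an unadjusted p under 0.05 there were 5 of the 86 tested (5.81%, beside 4.97% of all genes): Tmem70, Pprc1, Brp44l, Slc25a3 and Bnip3, all with an adjusted p of 0.931. Of 19 genes of pyruvate dehydrogenase and the TCA cycle, which supply the electrons, 9 were lower and 1 higher in ES than in TS (median log2FC -0.49), and 3 were lower and 1 higher in ES than in XEN (median -0.48). These are 52.6% and 21.1% of the list, beside 41.3% and 45.1% of all genes. Ogdh, of the oxoglutarate dehydrogenase complex, had 142 and 160 CPM in ES and 294 to 418 CPM in TS (log2FC -1.18, SE 0.21), and Dlst of the same complex was lower in ES than in TS (log2FC -0.83, SE 0.16) and XEN (log2FC -1.10, SE 0.17). Pdha1, the X-linked E1 subunit of pyruvate dehydrogenase, went the other way, with 593 and 336 CPM in ES female 1 and male 2 and 114 to 155 CPM in TS (log2FC 1.75, SE 0.27).

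Of 11 carrier genes tested, 2 were lower and 1 higher in ES than in TS, and 3 were lower and 1 higher in ES than in XEN, which is 27.3% and 36.4% of them, beside 41.3% and 45.1% of all genes. Slc25a4, which exchanges ADP for ATP across the inner membrane, had 152 and 129 CPM in ES, 445 to 644 CPM in TS and 616 and 876 CPM in XEN (ES against TS log2FC -1.87, SE 0.26). Slc25a31, its germ cell form, was higher in ES, at 3.20 CPM or less in every line (ES against TS log2FC 2.93, SE 0.94, edgeR adjusted p 0.0460). Cyct, the testis form of cytochrome c, was likewise higher in ES than in TS (log2FC 2.67, SE 0.87) at 4.01 CPM or less, and Cycs, the somatic form, was lower in ES than in XEN (log2FC -0.96, SE 0.25).

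In these comparisons of ES with TS and with XEN, 41.3% and 45.1% of all genes passed. A list of 11 genes held cytochrome c, chain genes with other names and related enzymes such as Etfa, Gpd2 and Dhodh. Of these 11, 3 were higher and 0 lower in ES than in TS, and 1 was higher and 2 lower in ES than in XEN (27.3% in each). Of 21 assembly genes of complexes III to V, 0 were higher and 3 lower in ES than in TS, and 1 was higher and 2 lower in ES than in XEN (14.3% in each). Tmem70, needed to build ATP synthase, was lower in ES than in TS (log2FC -0.93, SE 0.22) and XEN (log2FC -1.10, SE 0.24), and Cox15, needed for the haem of complex IV, was lower in ES than in both (log2FC -0.56, SE 0.17, and -1.16, SE 0.19). Of 17 tested genes of mitochondrial biogenesis, 4 were higher and 3 lower in ES in each of the comparisons with TS and XEN (41.2% in each). Gabpa was higher in ES than in TS (log2FC 1.22, SE 0.19) and Myc lower (log2FC -2.60, SE 0.29). Of 9 genes linked to oxygen sensing, 1 was higher and 1 lower in ES than in TS (22.2%), and 1 was higher and 4 lower in ES than in XEN (55.6%, median log2FC -0.58). The gene higher than in XEN was Pdk1, which shuts pyruvate out of the TCA cycle, with 80.8 and 159 CPM against 16.8 and 10.1 CPM (log2FC 3.16, SE 0.42).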

How the data were processed

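Embryos and cell lines were sequenced, and the authors deposited raw counts per gene symbol for 22 libraries, per the file headers. TopHat 1.3.1 and edgeR with mm9 appear in the submitters' processing notes. The counting program, its annotation and its use of strand were not given in the sources used here. The authors also deposited a list of 78 Nanog-regulated genes with a direction word in place of a number (unit other, per the file headers), which held 0 of the 92 chain genes.

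Embryos were fitted in edgeR 4.0.16 (R 4.3.3; TMM, filterByExpr, robust quasi-likelihood) by genotype and sex, with 12965 genes tested. The libraries of a line were summed and the 7 lines fitted by lineage, with 14687 genes. P-values were adjusted by Benjamini-Hochberg over all genes, threshold 0.05. The SE was taken as log2FC in absolute value divided by the root of edgeR's F. DESeq2 1.42.0, limma 3.58.1, other scalings, no filter, other terms and leaving out samples were alternatives, and medians without each sample were added after seeing the data. The test was checked on simulated data. Lengths came from GENCODE M21 exons, promoters from RefSeq (GRCm38.p6).

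Named were the core subunits and isoform pairs, the 10 smallest p in null against Nanog-bearing embryos, the 3 smallest in the other embryo comparisons, called line genes, and up to 3 genes of each other list; 1 of these genes is not reported here. The members and lists were chosen with earlier results of these data known. Related isoforms and pseudogenes can share reads.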

Additional observations from a re-analysis of the deposited data

Results flagged for a closer look

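Among the 4 null embryos, 48 items (named genes and summed complexes) were checked for a sample far from the others, and 2 were marked, where chance marks about 1 group in 20. Cox7a1 had 27.0 CPM in null male 2 and 5.04 to 7.13 CPM in the other null embryos. Ndufs3 had 149 CPM in null male 2 and 101 to 108 CPM in the others. For 1 gene the null embryos differed from the Nanog-bearing ones in opposite directions in females and males: Ndufs1 was 1.34 times as high in null as in Nanog-bearing females and 0.733 times as high in null as in Nanog-bearing males, with all embryos on these sides. This difference between the sexes was not tested. It was 1 of the 48 items checked, and with so few embryos of each sex it can arise from the order of values alone. Its share over all genes was not counted.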

How the results depend on the processing

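Genes called in null against Nanog-bearing and in null against heterozygous embryos rose from 0 to 1 each (Cox5a) with DESeq2 and with no low-count filter. They stayed at 0 without any single embryo. The share of all genes called without the filter is not given. With library totals, 0 chain genes lay wholly above in null embryos. For ES against TS (14 genes), voom called 25, the fit of 14 libraries with a replicate block 31, and replicate 2 alone 4; leaving out 1 line gave 2 to 18. For ES against XEN (16), voom called 28, a sex term 10, the replicate block 40 and replicate 2 alone 8; leaving out 1 line gave 2 to 28. For TS against XEN (8), RLE scaling called 5, library totals 19, a sex term 1, the replicate block 26, replicate 1 alone 4 and replicate 2 alone 3; leaving out 1 line gave 1 to 9. The median log2FC moved to 0.164 (ES against XEN) and 0.3362 (TS against XEN) with library totals. It ranged from -0.3016 to 0.0264 and from -0.1225 to 0.2172 when 1 line was left out. The cause of these shifts was not tested beyond the smaller number of samples. Counts of all genes called under the same line settings are not given, so the shifts cannot be read as a trait of the chain genes. The replicate numbers did not pair the lines: replicate differences correlated over 0.1 in 3 of 16 pairs of lines, so the block is no paired analysis. Of calls of single chain genes in the lines, 77 were lost under settings that kept all lines and 121 when 1 line was left out, counted over genes and settings. No chain gene called in the lines changed sign. With a BCV over all genes of 0.979 in embryos and 0.346 in lines, small differences in embryos were not detectable. The SE of a log2FC is another measure than the BCV. In null against Nanog-bearing embryos its median was 0.27 over the chain genes, beside 0.80 over all genes, which include more genes at low levels. Among genes of at least 5 log2 CPM, the median SD of log2 CPM across embryos was 0.36 for chain genes and 0.49 for all.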
